A study of Saccharomyces cerevisiae with 42 samples.

Results

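The genes of gluconeogenesis and the glyoxylate cycle, with the activators that switch them on, were followed through the growth of yeast cultures in glucose medium. Members were taken by name: the gluconeogenic enzymes FBP1 and PCK1, the glyoxylate cycle and acetate genes ICL1, MLS1, MDH2, ACS1 and SFC1, and the transcription factors CAT8, SIP4 and ADR1. All 10 were found among the 7127 annotated genes. The samples were 42 polyA-selected, strand-specific RNA libraries of Saccharomyces cerevisiae BY4742, labelled wild type and grown at 30 °C in YPD, a rich medium with glucose. Precultured cells were put into fresh medium and grown for 2 h before the 0 h samples were taken (24 libraries), and growth went on for a further 2, 4 and 6 h (6 libraries each). The comparison asks when in this course, if at all, the genes that yeast needs for growth on ethanol and acetate rise.

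Baker's yeast ferments glucose to ethanol while glucose lasts and later respires the ethanol it made. To grow on ethanol the cell turns it into acetyl-CoA, builds malate and oxaloacetate from acetyl-CoA in the glyoxylate cycle, and makes sugar phosphates from oxaloacetate by gluconeogenesis. On glucose these genes are repressed, in part through the repressor Mig1, and when glucose falls the kinase Snf1 relieves the repression and activates Cat8, Sip4 and Adr1. Cat8 and Sip4 bind a promoter sequence called the carbon source-responsive element (CSRE).

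The 600 bases upstream of each coding region were searched on both strands in the RefSeq R64 genome, the assembly of the count files, for 3 kinds of site. These were the CSRE consensus for Cat8, the core of the site of Mig1 and the core of the site of Adr1. The Mig1 core was taken as CCGGGG with C or T allowed at its second base, which includes the form CTGGGG, and likewise as GCGGGG, which includes the form GTGGGG. The Adr1 core was taken as TTGGAG, with the form TTGGGG also counted. A CSRE match occurred upstream of 4 of the 10 genes, with 7 matches in all, whereas 33 of 5989 protein-coding genes (0.551%) had one in a window of this length. The 33 include these 4, and a site that departs from the consensus was not counted. Whether the consensus was itself drawn from sites of these genes was not checked, so the shares are not a test of enrichment. The matches are shown because a CSRE is the element that Cat8 and Sip4 are known to bind, and whether they are bound was not tested. Each is printed 5′ to 3′ on the strand that carries the consensus, with the match in capitals.
PCK1 site: aaccgagctTCCTTTCATCCGgcgcggctg
ICL1 site: ccccaggttTCCATTCATCCGagcgatcac
MLS1 far site: atggggattTCCATTGAGCCGatagcaatg
MLS1 near site: atcatagctTCCATTGGGCCGatgaagtta
MDH2 far site: gatgatgagTCCATTTGGCCGgggaaggcc
MDH2 middle site: cgatacggcCCCTTTAATCCGcaattactt
MDH2 near site: attactttgCCCATTCGGCCGtagccgttc

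The PCK1 window lies at chrXI:630661-630690 on the plus strand, and its match ends 471 bases before the coding region. The ICL1 window is at chrV:287293-287322 on the minus strand, 388 bases before the gene. The MLS1 windows are at chrXIV:405818-405847 on the minus strand and chrXIV:405848-405877 on the plus strand, 520 and 490 bases before the gene, so that its matches point in opposite directions. Those of MDH2 are at chrXV:83333-83362 on the plus strand and chrXV:83301-83330 and chrXV:83278-83307 on the minus strand, 422, 390 and 367 bases before the gene. A Mig1 core was found upstream of 6 of the genes (FBP1, PCK1, ICL1, MLS1, MDH2 and CAT8), with a background share of 27.9%. In MDH2 it shares bases with the far CSRE match, and in ICL1 it lies in the lower-case flank printed above. An Adr1 core was found upstream of ACS1, 3 times, and of MDH2, with a background share of 32.1%. A match is a run of letters and not a measured binding site, and the windows of SFC1, SIP4 and ADR1 held none of these letters.

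**Figure D1:**
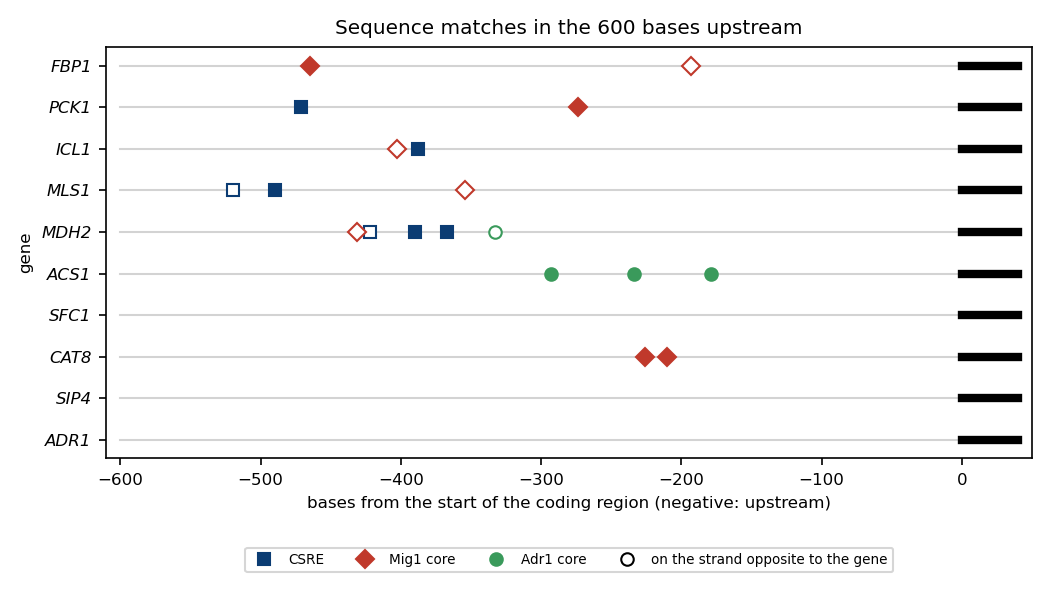
Positions of the sequence matches upstream of the 10 genes, in bases from the start of the coding region (black bars), with open symbols for the strand opposite to the gene. CSRE matches occur in 4 genes and Mig1 cores in 6, while ACS1 holds 3 Adr1 cores.

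Libraries held between 4339150 and 31908031 gene counts. Levels are given as normalised counts, which are counts scaled to the average library of 13900104 counts. URA3, LEU2 and LYS2 had at most 1 count in a library, MET17 at least 902, and the alpha-cell genes MFALPHA1 and STE3 at least 4701 and 2818. HIS3 had at least 153 counts in every library. How much of the gene is removed by the his3 allele named in the methods was not checked, so these counts need not go against it. With HIS3 left aside, these are the marker genes of BY4742 as generally known. They are not those of the genotype written in the methods, which names met15 and mating type a. For 18 of the 24 libraries at 0 h, the read files behind the counts are named for a different treatment, and all 24 were kept under their labels. The libraries also fell into 2 sets that do not follow time, found after the data were seen. Regressed on log2 gene length, log2 CPM (depth-scaled counts) had a slope of -0.08 to 0.19 in 10 of them, called the flat set, which holds 7 of the 0 h, 1 of the 2 h, 0 of the 4 h and 2 of the 6 h libraries. For the steep set, which is the remaining 32, slopes were 0.38 to 0.62. Long genes therefore read lower in the flat set, and CAT8, SIP4 and ADR1 are the longest of the 10 genes.

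Changes were tested with edgeR's quasi-likelihood test over 5922 genes with at least 10 counts in at least 24 libraries, and adjusted over all of them (Benjamini-Hochberg). FBP1, PCK1, ICL1, MLS1, MDH2, ACS1, CAT8 and ADR1 passed an adjusted p of 0.05 with higher levels after 6 h than at the start, which is 8 of the 9 members tested, where 25.5% of all tested genes were higher and 18.7% lower. SIP4 was tested and not called. SFC1 had too few counts for the fit and was tested alone. The median log2 change of the 9 was 0.89, against 0.03 over all tested genes. In 5 genes (FBP1, PCK1, MLS1, ACS1 and CAT8) all 6 libraries at 6 h were above all 24 at 0 h, which held for 4.42% of tested genes. In these bulk libraries a larger share of cells with the mRNA and more mRNA per cell cannot be told apart.

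**Figure D2:**
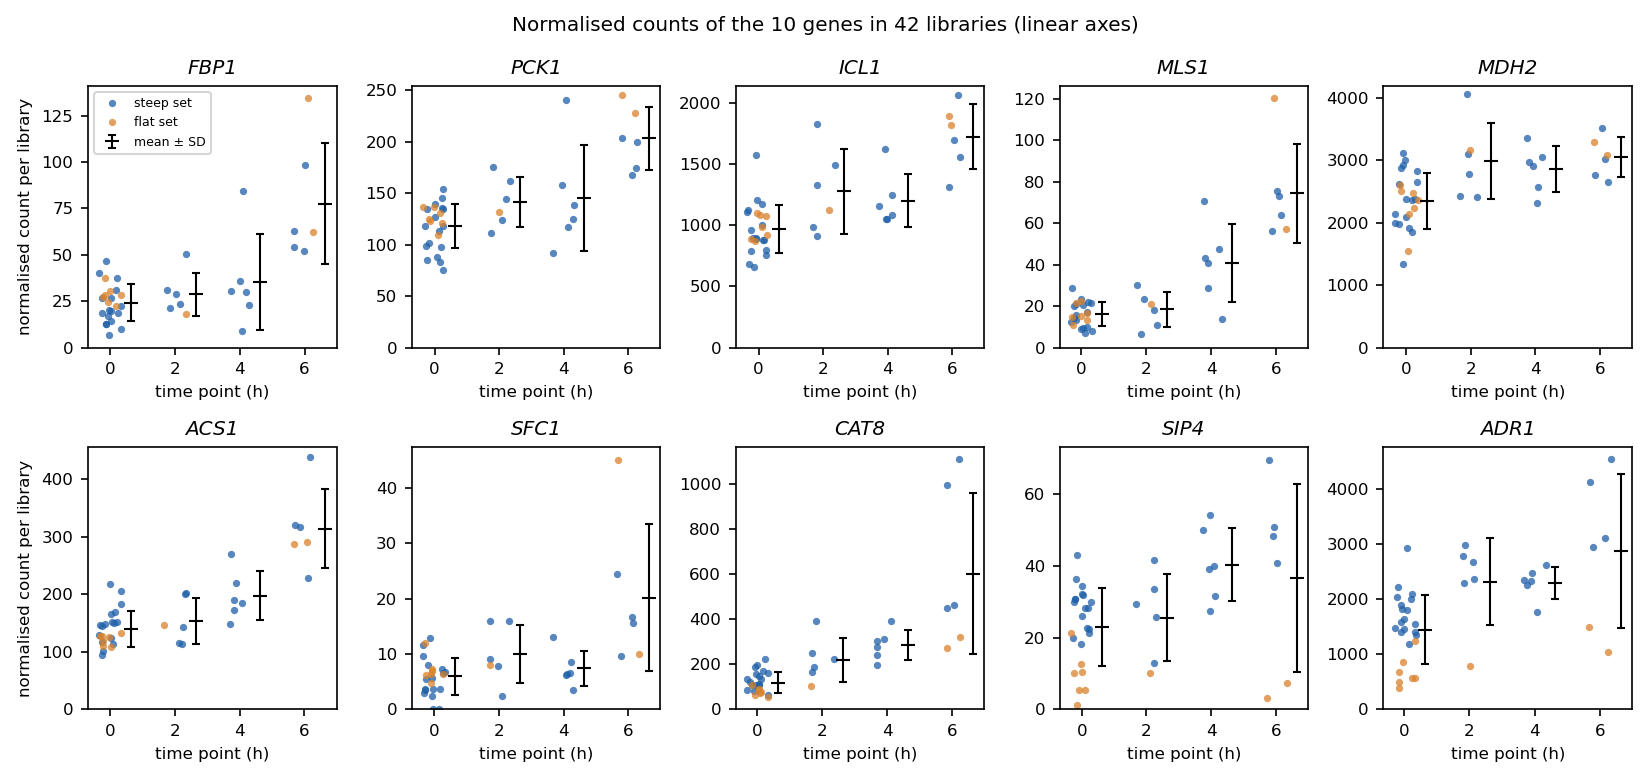
Normalised count of each gene in each library (vertical axes, linear) by time point (horizontal axes, h), coloured by length-slope set, with the mean and SD of each time point beside the points. FBP1, PCK1, MLS1, ACS1 and CAT8 at 6 h lie above every library at 0 h. For CAT8, SIP4 and ADR1 the flat libraries at 6 h lie below the steep ones. At 0 h the flat means of these genes are also lower, though the ranges of the sets overlap.

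CAT8 (YMR280C, chromosome XIII, 827028 to 831329, minus strand), the zinc-cluster activator of the gluconeogenic genes, was higher at 4 h and at 6 h than at 0 h. Its normalised counts at 0 h ran from 51.7 to 223 with a median of 107, at 2 h from 103 to 391 (median 204), at 4 h from 194 to 391 (median 288) and at 6 h from 272 to 1108 (median 456). No library at 6 h overlapped those at 0 h, and 5 of 6 at 4 h were above the highest at 0 h. The log2 change was 0.81 at 2 h (standard error 0.22, adjusted p = 0.134), 1.19 at 4 h (0.22, adjusted p = 6.2e-05) and 2.25 at 6 h (0.20, adjusted p = 3.75e-12). At 6 h the spread was wide: 992 and 1108 in replicates 1 and 5, between 449 and 462 in replicates 3 and 6, and 272 and 320 in replicates 2 and 4, which are the flat libraries. Mean levels in the flat set were 76.7 ± 17.6 for the 7 libraries of 0 h and 296 ± 34.5 for the 2 of 6 h (SD). In the steep set they were 134 ± 43.9 for 17 libraries and 753 ± 346 for 4. The log2 change at 6 h with the set as a term was 2.22.

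ADR1 (YDR216W, chromosome IV, 895035 to 899006, plus strand), the zinc-finger activator of ADH2, ACS1 and peroxisomal genes, was much more abundant than CAT8. It had 385 to 2935 normalised counts at 0 h (median 1470), 787 to 2987 at 2 h (median 2517), 1772 to 2617 at 4 h (median 2341) and 1037 to 4551 at 6 h (median 3023). The groups overlapped at every time point. The log2 change was 0.89 at 6 h (standard error 0.24, adjusted p = 0.00285), 0.59 at 4 h (adjusted p = 0.0637) and 0.62 at 2 h (adjusted p = 0.38). In the flat set the mean level was 682 ± 287 for the 7 libraries of 0 h and 1267 ± 325 for the 2 of 6 h (SD), and in the steep set 1756 ± 423 for 17 and 3684 ± 785 for 4. All 4 steep libraries at 6 h were above all 17 steep libraries at 0 h. In the steep set alone ADR1 was also higher at 2 h (log2 change 0.52, adjusted p = 0.0342) and at 4 h (0.33, adjusted p = 0.0305).

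SIP4 (YJL089W, chromosome X, 265926 to 268415, plus strand), a second CSRE-binding activator whose gene is itself known as a target of Cat8, had few reads. Raw counts ran from 1 to 117. Normalised counts were 1.07 to 43.1 at 0 h (median 24.3), 10.1 to 41.7 at 2 h (median 27.6), 27.5 to 54.3 at 4 h (median 39.5) and 3.17 to 69.7 at 6 h (median 44.6). Both the lowest and the highest of the 18 later values thus came from 6 h. The log2 change was 0.74 at 4 h (adjusted p = 0.109) and 0.54 at 6 h (standard error 0.36, adjusted p = 0.234). Without replicate 1 at 6 h the 6 h value was 0.27 (adjusted p = 0.615), and with only the 6 libraries of 0 h whose submitter numbers run on to the later ones, which are also the 6 with read files named for 30 °C, it was 0.25 (adjusted p = 0.752). The libraries at 6 h divided by set: 40.7 to 69.7 in the 4 steep ones, against 18.1 to 43.1 at 0 h, and 3.17 and 7.16 in the 2 flat ones, against 1.07 to 21.1 at 0 h. In the steep set alone SIP4 was higher at 6 h (log2 change 0.73, adjusted p = 0.00221), whereas with all libraries and the set as a term it was not called (0.39, adjusted p = 0.158).

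**Figure D3:**
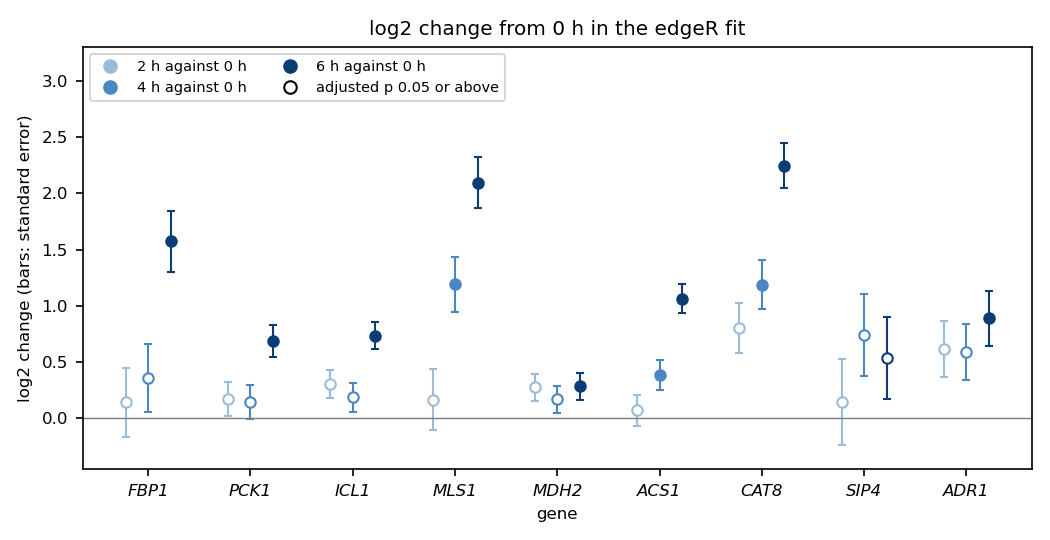
log2 change from 0 h of the 9 tested genes at 2, 4 and 6 h, with standard errors. Filled points passed an adjusted p of 0.05: 0 genes at 2 h, 3 at 4 h (MLS1, ACS1 and CAT8) and 8 at 6 h.

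Of the glyoxylate cycle enzymes, MLS1 (YNL117W, chromosome XIV, 406358 to 408022, plus strand), malate synthase, started from very few reads. Raw counts at 0 h were 4 to 29. Normalised counts were 7.26 to 28.5 at 0 h (median 15.3), 6.41 to 30.1 at 2 h (median 19.7), 14.0 to 70.5 at 4 h (median 42.1) and 56.2 to 120 at 6 h (median 68.5). At 4 h, 5 of 6 libraries were above all those at 0 h, and at 6 h all 6 were. The log2 change was 1.19 at 4 h (standard error 0.24, adjusted p = 0.000295) and 2.09 at 6 h (0.23, adjusted p = 4.53e-10). MLS1 has a close paralog, DAL7, and reads that mapped to both were not counted, so its absolute level is uncertain. DAL7 itself had 572 ± 115 (SD) normalised counts in the 24 libraries of 0 h and 755 ± 105.7 in the 6 of 6 h.

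ICL1 (YER065C, chromosome V, 285241 to 286914, minus strand), isocitrate lyase, the first step of the bypass, was already well expressed. It had 661 to 1573 normalised counts at 0 h (median 907), 909 to 1829 at 2 h (median 1226), 1049 to 1619 at 4 h (median 1121) and 1315 to 2067 at 6 h (median 1759). Of the 6 libraries at 6 h, 4 were above the highest at 0 h and all 6 above its median. Its log2 change was 0.74 at 6 h (standard error 0.12, adjusted p = 5.08e-06) and 0.19 at 4 h (adjusted p = 0.261).

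MDH2 (YOL126C, chromosome XV, 81787 to 82920, minus strand), the cytosolic malate dehydrogenase, was the most abundant of the 10 genes per kb. It had 1345 to 3119 normalised counts at 0 h (median 2374), 2415 to 4058 at 2 h (median 2939), 2320 to 3366 at 4 h (median 2941) and 2656 to 3519 at 6 h (median 3061). The groups overlapped throughout, with 2 of 6 libraries at 6 h above the highest at 0 h. The log2 change at 6 h was 0.28 (standard error 0.12, adjusted p = 0.0496). With only the 6 running-number libraries of 0 h it was 0.60 (adjusted p = 0.00423). The call was lost in the steep set (0.20, adjusted p = 0.217), in DESeq2 (0.25, adjusted p = 0.0804), with no filter (0.28, adjusted p = 0.0579) and without any one of 25 libraries (14 of 0 h, 3 of 2 h, 5 of 4 h and 3 of 6 h), with adjusted p up to 0.139.

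ACS1 (YAL054C, chromosome I, 42881 to 45022, minus strand), the glucose-repressed acetyl-CoA synthetase, had 93.3 to 218 normalised counts at 0 h (median 131), 113 to 201.2 at 2 h (median 145), 148 to 269 at 4 h (median 187) and 229 to 438 at 6 h (median 304). The 6 libraries at 6 h were all above those at 0 h. The log2 change was 1.06 at 6 h (standard error 0.13, adjusted p = 4.4e-09), and flat and steep libraries overlapped at both time points. Mean levels went from 121.1 ± 9.30 to 289 ± 2.83 in the flat libraries (SD, n = 7 and 2) and from 148 ± 34.1 to 326 ± 85.8 in the steep ones (SD, n = 17 and 4). At 4 h it was 0.39 (0.13, adjusted p = 0.0236), a call that was lost without replicate 1 at 4 h (0.29, adjusted p = 0.137) or replicate 2 at 4 h (0.37, adjusted p = 0.0538), and with the 6 running-number libraries of 0 h (0.52, adjusted p = 0.104). Its paralog ACS2, which serves cells growing on glucose, was lower at 6 h (log2 change -0.31, adjusted p = 0.00131).

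SFC1 (YJR095W, chromosome X, 609773 to 610741, plus strand), the mitochondrial carrier that trades the succinate of the glyoxylate cycle for fumarate, was near the limit of detection. Raw counts ran from 0, in 2 libraries, to 57. Normalised counts were 0 to 12.9 at 0 h (median 6.26), 2.45 to 16.0 at 2 h (median 8.60), 3.503 to 13.0 at 4 h (median 6.46) and 9.53 to 45.1 at 6 h (median 16.1). The groups overlapped, with 4 of 6 libraries at 6 h above the highest at 0 h. The mean of log2(normalised count + 1) was 1.63 higher at 6 h than at 0 h (two-sided exact permutation test, p = 0.00061) and 1.23 higher than at 4 h (exact p = 0.00866). Earlier differences from the 0 h libraries were smaller, with 0.70 after 2 h (exact p = 0.104) and 0.41 after a further 2 h (exact p = 0.331). These 4 values are not adjusted.

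PCK1 (YKR097W, chromosome XI, 631152 to 632801, plus strand), phosphoenolpyruvate carboxykinase, which starts gluconeogenesis, had 75.2 to 154 normalised counts at 0 h (median 122), 111 to 175 at 2 h (median 138), 92.3 to 240.9 at 4 h (median 131) and 167 to 246 at 6 h (median 202). The values at 6 h were narrow and above all those at 0 h. Its log2 change was 0.68 at 6 h (standard error 0.14, adjusted p = 0.000135) and 0.15 at 4 h (adjusted p = 0.46). FBP1 (YLR377C, chromosome XII, 873746 to 874792, minus strand), fructose bisphosphatase, which opposes phosphofructokinase, had 7.05 to 46.7 normalised counts at 0 h (median 23.5), 18.2 to 50.3 at 2 h (median 26.1), 9.11 to 84.6 at 4 h (median 30.3) and 52.0 to 135 at 6 h (median 62.6). Its raw counts at 0 h were 6 to 76. At 6 h all libraries were above those at 0 h, and the log2 change was 1.57 (standard error 0.27, adjusted p = 6.28e-06). At 4 h it was 0.36 (adjusted p = 0.365) and rested on replicate 3, without which it was -0.037, and that of PCK1 -0.032.

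Across the other comparisons, 0 members were called at 2 h against 0 h, where 0.0844% of tested genes were higher and 0.0338% lower. At an unadjusted p under 0.05, 4 members were higher there (CAT8, ADR1, ICL1 and MDH2), beside 582 of 5922 tested genes in either direction. DESeq2 called 0 members there. At 4 h against 0 h, 3 were called (17.1% of tested genes higher, 15.7% lower). At 4 h against 2 h, 0 were called (3.29% higher, 1.69% lower), and DESeq2 called 1. MLS1 alone of the members had an unadjusted p under 0.05 (log2 change 1.03, adjusted p = 0.063), beside 1091 of 5922 tested genes in either direction. At 6 h against 4 h, CAT8 (log2 change 1.06, adjusted p = 0.0265), ACS1 (0.68, adjusted p = 0.0145) and ICL1 (0.55, adjusted p = 0.0465) were higher (3.38% of tested genes higher, 0.963% lower), and FBP1 stood at 1.21 (adjusted p = 0.0545). Flat libraries number 0 at 4 h and 2 at 6 h. With the set as a term ICL1 was not called in this step (0.45, adjusted p = 0.0623), while ADR1 was (0.60, adjusted p = 0.0325). Replicate 3 at 4 h, the shallowest library of its group with 6404650 counts, held the highest 4 h value of 7 of the 10 genes and the lowest of MDH2 and ACS1. Without it 5 members were called at 6 h against 4 h, and the calls over all genes in that fit were not counted. Each of the 3 calls there was lost without some single library, with adjusted p of 0.167 for ICL1 without replicate 2 at 6 h, and of 0.0979 for CAT8 and 0.0508 for ACS1 without replicate 5 at 6 h.

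Per kb of coding length the 10 genes spanned a wide range. At 0 h the order of mean normalised count per kb was MDH2 (2072 ± 397, SD, n = 24), ICL1 (577 ± 117), ADR1 (363 ± 158), PCK1 (71.5 ± 13.0), ACS1 (65.3 ± 14.6), CAT8 (27.3 ± 10.7), FBP1 (23.1 ± 9.50), MLS1 (9.72 ± 3.42), SIP4 (9.24 ± 4.38) and SFC1 (6.14 ± 3.44). The neighbours PCK1 and ACS1, CAT8 and FBP1, MLS1 and SIP4, and SIP4 and SFC1 differed by less than the SD of either gene. MDH2, ICL1 and ADR1 were above 81.6%, 44.5% and 28.8% of tested genes, and the other 7 genes were each above fewer than 10% of them. At 6 h, after the rises given above, the same 7 genes were still above fewer than 10% of tested genes: ACS1 above 9.17%, CAT8 8.85%, PCK1 7.90%, FBP1 5.18%, MLS1 2.96%, SFC1 1.17% and SIP4 0.6248%. These shares pool the flat and steep libraries and were not taken within each set. For CAT8, the longest of the 10 genes, mean normalised counts at 6 h were 296 in the flat set and 753 in the steep set. HXK1, a glucose-repressed hexokinase, had a log2 change of 4.37 at 6 h (adjusted p = 2e-18), and HXT1, a transporter used at high glucose, of -3.32 (adjusted p = 1.13e-14).

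**Figure D4:**
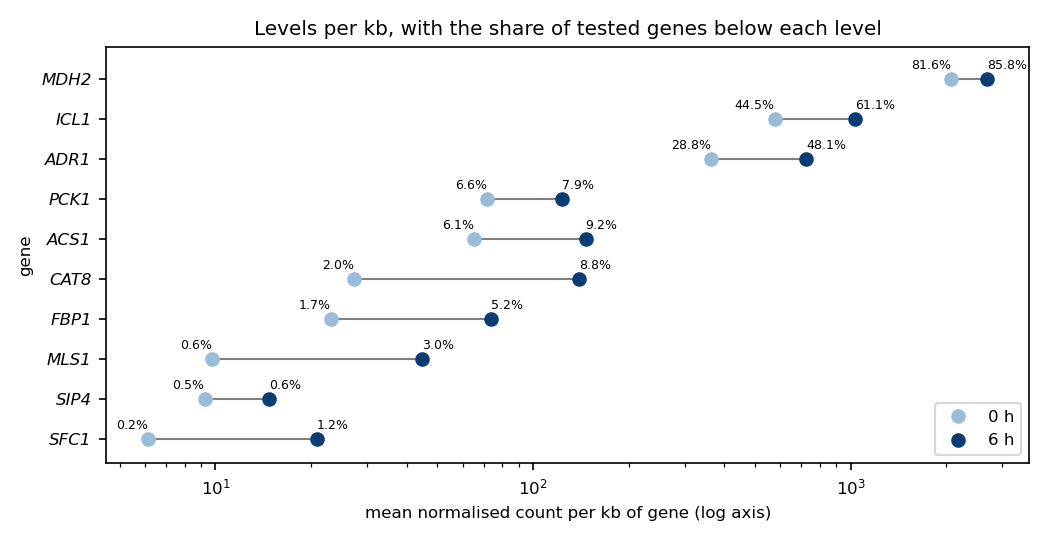
Mean normalised count per kb (horizontal log axis) of each gene at 0 h and 6 h, over flat and steep libraries together. The percentages give the share of tested genes below that level, which stays under 10% for 7 of the 10 genes at both times.

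The opposed steps of glycolysis give a scale for these levels within each library. For every 1000 normalised counts per kb of the phosphofructokinase genes PFK1 and PFK2, FBP1 had 0.360 to 3.92 at 0 h (median 1.37), 1.01 to 3.10 at 2 h (median 1.67), 0.476 to 5.88 at 4 h (median 1.62) and 3.06 to 18.3 at 6 h (median 4.25). For every 1000 of CDC19, pyruvate kinase, PCK1 had 0.429 to 1.11 at 0 h (median 0.734), 0.714 to 1.16 at 2 h (median 0.905), 0.578 to 1.77 at 4 h (median 0.855) and 1.37 to 1.502 at 6 h (median 1.44). The PCK1 ratio at 6 h did not overlap that at 0 h, while 1 or more libraries overlapped for FBP1. In every library the glycolytic mRNA was thus in large excess per kb.

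Among 26 genes of acetate, ethanol and organic acid use around the pathway, 17 rose and 2 fell between 0 h and 6 h (median log2 change 0.54), beside 25.5% and 18.7% of all tested genes. The 4 with the largest changes were ATO2 (1.84), a putative ammonium exporter, ALD4 (1.82), the mitochondrial aldehyde dehydrogenase, JEN1 (1.75), the lactate transporter, and CRC1 (1.73), the mitochondrial acyl-carnitine carrier. The 2 lower genes were ATO3 (-1.55) and ACS2. At 4 h, 8 were higher and 3 lower, beside 17.1% and 15.7% of all tested genes. ADH2, the alcohol dehydrogenase that oxidises ethanol and the best-known target of Adr1, is named here after its values were seen: it had 100.4 ± 30.7 (SD) normalised counts in the 24 libraries of 0 h, 65.5 ± 41.2 in the 6 of 4 h and 82.5 ± 52.8 in the 6 of 6 h. Its log2 change was -0.80 at 4 h (adjusted p = 0.0478) and -0.39 at 6 h (adjusted p = 0.307). The 4 h call was lost with library size alone (-0.65, adjusted p = 0.0914) and kept in DESeq2 (-0.81, adjusted p = 0.0243). Reads shared with its near-identical paralog ADH1 were not counted, so its level is uncertain.

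Of 11 targets of Adr1 outside the 10 genes, ADH2 among them, 10 were tested. ADH2, ALD4, ATO3 and ICL2 are also among the 26 genes above. At 6 h 6 were higher and 1 lower (median log2 change 0.37), beside the same 25.5% and 18.7%. The largest changes were those of GIP2 (2.14), a regulatory subunit of the phosphatase Glc7, ALD4 (1.82), ATO3 (-1.55) and POX1 (1.44), the acyl-CoA oxidase of peroxisomes. The 3 tested genes not called were ADH2 (-0.39), CTA1, peroxisomal catalase (-0.09), and FOX2, of peroxisomal fatty acid oxidation (-0.13).

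Of 17 regulators of the derepression, 5 were higher and 4 lower at 6 h (median log2 change 0.02), which is near the 25.5% and 18.7% of all tested genes. HAP4, the activating subunit of the respiratory Hap complex, changed by 2.08, the Mig1 relative MIG3 by -1.27, SIP2, a subunit of the Snf1 kinase, by 1.08 and the repressor MIG1 by 1.00. All 8 listed genes of the GID ligase, which marks Fbp1, Pck1 and Mdh2 protein for degradation when glucose returns, were tested, and 6 were higher and 0 lower at 6 h (median log2 change 0.65), beside 25.5% and 18.7%. The largest changes were in UBC8 (1.44), its ubiquitin-conjugating enzyme, VID24 (0.83), its substrate receptor, VID30 (0.79) and GID8 (0.75). Of 14 glycolytic enzyme genes 3 were higher and 4 lower at 6 h (median log2 change -0.22), again near the 25.5% and 18.7% of all tested genes. The largest changes were those of TDH1 (4.08), PYK2 (0.88), ENO1 (0.82) and ENO2 (-0.72). The isozymes TDH1 and ENO1 share sequence with TDH2, TDH3 and ENO2, which limits their counts in the same way as above. None of the called genes in these lists turned direction with scaling by library size alone or in DESeq2. Some calls did change. At 6 h, library size alone lost 2 and gained 3, and DESeq2 lost 2 and gained 1. At 4 h, library size alone lost 3 and gained 5, and DESeq2 lost 1 and gained 4.

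**Figure D5:**
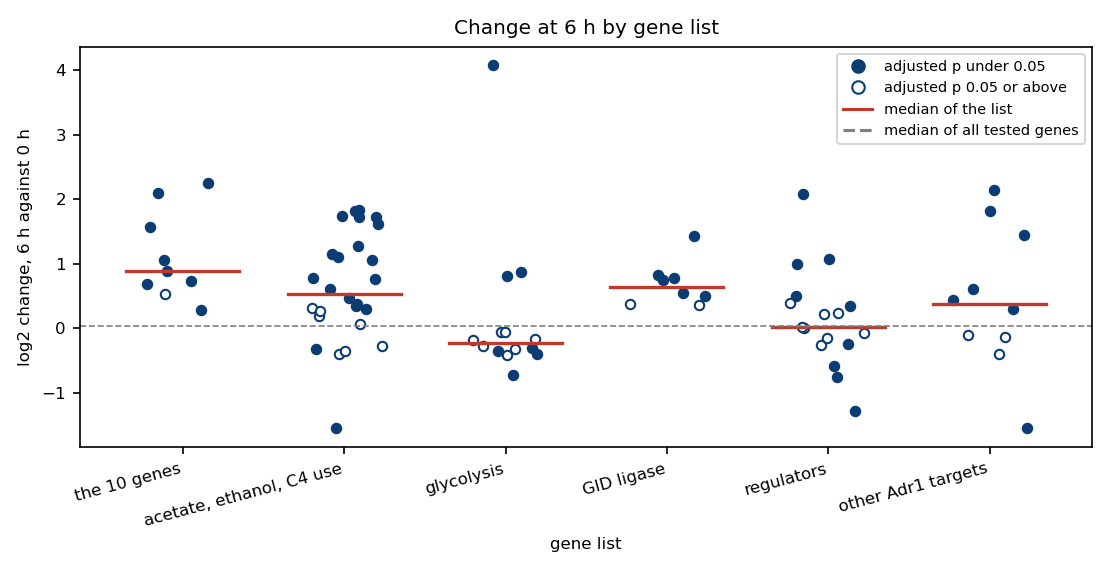
log2 change at 6 h against 0 h of each tested gene, by list, with the median of each list (red) and of all 5922 tested genes (dashed, 0.03). The medians are 0.89 for the 10 genes, 0.54 for acetate and ethanol use, -0.22 for glycolysis, 0.65 for the GID ligase, 0.02 for the regulators and 0.37 for other Adr1 targets.

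The genes most like each member over the 42 libraries were found by Pearson's r of log2(normalised count + 1), as a description only, since the libraries share depth and length-slope set. CAT8 was closest to MSN4 (r = 0.943), DBP1 (0.937) and CSR2 (0.936), and ADR1 to SFP1 (0.953), GDH2 (0.952) and MSS4 (0.951). SIP4 was closest to OAF3, RAD61 and YBR027C (0.887, 0.887 and 0.886). FBP1 was closest to MRPL16 (0.839), UGX2 (0.794) and REG2 (0.789), and PCK1 to MRPL16 (0.793), THI7 (0.787) and NIS1 (0.786). ICL1 was closest to YAP1802 (0.932), MTO1 (0.917) and GUT2 (0.908), MLS1 to YIL014C-A (0.851), BNA2 (0.848) and TUF1 (0.829), and ACS1 to BNA2 (0.847), PRY1 (0.843) and BCS1 (0.836). MDH2 and SFC1 had no gene above 0.705 and 0.644, led by ROX1 and YGR201C, with YER158C and GUF1 next for MDH2 and YGR107W and YGR121W-A next for SFC1.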

How the data were processed

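Reads were aligned by the authors using STAR, run by nf-core, and the authors deposited for each library the whole-gene counts made by featureCounts 2.0.3 on the Ensembl release 106 annotation of R64-1-1. Counting was strand-specific and by single read of a pair. Reads mapping to several places or overlapping several genes were not counted. The methods name a ComBat-seq adjustment, of which the deposited counts carry no mark. Genes were named through RefSeq. None of the 10 genes has an intron or overlaps another gene, and the exon counts were not used. Totals ranged from 4339150 to 31908031 counts.

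Changes came from edgeR 4.0.16 (R 4.3.3, TMM scaling, one mean per time point, all 42 libraries). Genes with at least 10 counts in at least 24 libraries were tested, a number that the 18 later libraries cannot reach alone. On simulated counts the fit recovered most of the larger changes put in, with a small median error. For the smaller changes only this error was checked. The counts were drawn independently, without length-slope sets or shared cultures. SFC1 was tested by exact permutation (pseudocount 1). Alternatives were DESeq2 1.42.0, library size alone, 3 other filters, the length-slope set, fewer 0 h libraries, replicate blocks and leaving out each library. The 2 replicates most alike differed by more than counting noise (chi-square per degree of freedom 8.48). Replicates are labelled biological. Named genes were all 10 members, up to 4 called genes per list by size of change at 6 h, and the 3 genes most like each member. Outside this rule, other listed genes such as ACS2, DAL7, ADH2, CTA1 and FOX2 were named, and so were strain and glucose markers. Members and lists were chosen with earlier results of these data known.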

Additional observations from a re-analysis of the deposited data

Results flagged for a closer look

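In groups of 6 libraries, a value was set apart when its gap to the next, as a share of the range of its group, exceeded Dixon's critical value, which chance alone does in about 1 group in 20. Of 30 groups (10 genes at 2, 4 and 6 h) 4 held such a value. Replicate 3 at 4 h had 84.6 normalised counts of FBP1, where the next library had 35.9, and 1619 of ICL1, where the next had 1244. It is a steep library of 6404650 counts. By running submitter numbers it belongs with replicate 22 at 0 h, replicate 4 at 2 h and replicate 3 at 6 h. Replicate 22 held the highest 0 h values of FBP1 (46.7) and ICL1 (1573), and replicate 4 the highest 2 h value of ICL1 (1829). For FBP1 replicate 4 had 28.8, where the highest at 2 h was 50.3. Replicate 3 at 6 h had 1559 of ICL1, below the median of 1759. The part of depth or of a shared culture was not tested. Replicate 2 at 6 h, a flat library, had 120 normalised counts of MLS1, where the next had 75.4. Without it the log2 change of MLS1 at 6 h was 1.82. Replicate 1 at 2 h, the flat library of that time point, had 787 normalised counts of ADR1, where the next lowest had 2291.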

How the results depend on the processing

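At 6 h against 0 h, 8 members were called, and 3 with at least 75 counts in every library, a filter that only ICL1, MDH2 and ADR1 passed. At 4 h against 0 h the count of 3 became 0 with that filter and 1 with the replicate numbers of the titles as a block. It became 5 with a block by culture and the length-slope set, an alternative chosen after seeing the data. Over all 5922 tested genes, 1011 were higher and 929 lower there in the main fit. With the title block these were 253 and 144, and with the block by culture and set 776 and 748. At 2 h against 0 h the count of 0 became 1 in the steep set and with that last block. Over all genes, the 5 higher and 2 lower calls there became 83 and 46 in the steep set and 9 and 1 with the block. At 4 h against 2 h the count of 0 became 1 with library size alone, in DESeq2, with the set as a term and in the steep set. Over all genes, the 195 higher and 100 lower calls there became 196 and 72 with library size alone and 240 and 171 in DESeq2. With the set as a term these were 475 and 291, and in the steep set 493 and 295. At 6 h against 4 h the count of 3 became 1 with library size alone, with 75 counts in every library and with the title block. It became 0 with 6 libraries at 0 h. Over all genes, the 200 higher and 57 lower calls there became 225 and 44 with library size alone and 96 and 32 with the title block. With 75 counts in every library these were 137 and 47 of 4789 genes, and with 6 libraries at 0 h 83 and 24. Except as the filter shows, the cause was not tested. Leaving out 1 library gave 0 to 1 members at 2 h against 0 h, 0 to 1 at 4 h against 2 h and 1 to 5 at 6 h against 4 h. The calls over all genes were not counted in these fits. The log2 change at 4 h ran from -0.037 to 0.56 for FBP1 and from -0.032 to 0.25 for PCK1, with the negative values without replicate 3 at 4 h. Over all genes at 6 h, scaling by library size alone shifted the median from 0.03 to 0.13 and the 1511 higher and 1106 lower calls to 1838 and 757. With 6 libraries at 0 h they were 905 and 664, with the title block 902 and 704, and at 4 h the 1011 and 929 calls became 242 and 126 with 6 libraries at 0 h.

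Neither numbering gave a correlation over 0.1 in all its pairs, so neither was taken as pairing. Deviations of libraries with the same title number correlated between -0.68 and 0.65, and of those with running submitter numbers between -0.68 and 0.82. With the length-slope set removed, the latter ran from -0.0073 to 0.59 (median 0.24, against -0.08 for other pairs), a hint of shared culture from the data and not from the labels. With the title block ADR1 at 6 h (0.83, adjusted p = 0.0548), MDH2 at 6 h (0.19, adjusted p = 0.322), MLS1 at 4 h (1.04, adjusted p = 0.0844) and ACS1 at 4 h (0.29, adjusted p = 0.274) were not called. With the culture block ACS1 at 4 h was not called (0.53, adjusted p = 0.0519), while MDH2 was called at 4 h (0.50, adjusted p = 0.0308) and stood at 0.60 at 6 h (adjusted p = 0.00296). Depth limits SFC1, SIP4, MLS1 and FBP1 most.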
